A study of Mus musculus with 6 samples.

Results

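Transcripts of 9 clock output and accessory loop genes (Dbp, Tef, Hlf, Nfil3, Ciart, Bhlhe40, Bhlhe41, Rora and Usp2) were examined among the 52636 genes of a bulk RNA sequencing table of mouse thoracic aortas. Each gene was found by its identifier, and all 9 were among the 17070 genes to which DESeq2, a model of counts fitted across all genes, gave an adjusted p-value. The 9 genes were selected on values of the comparison below, already known from these libraries. Their differences between the groups are therefore a description and carry no test.

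The WT group held 4 libraries (WT-1 to WT-4) from 12-week-old C57BL/6J mice that received no treatment. The KO group held 2 libraries (KO-1 and KO-2) from 12-week-old Tgfbr1/2iSMCKO mice, which carry Tgfbr1 fl/fl, Tgfbr2 fl/fl, Myh11-CreERT2 and the mT/mG reporter. In these mice a Cre recombinase that needs tamoxifen is made from the Myh11 promoter in smooth muscle cells (SMCs), and tamoxifen, injected at 11 weeks of age for 5 days at a daily 2 mg, starts the deletion of both TGF-β receptor genes. The WT mice had no floxed allele, no Cre, no reporter and no tamoxifen, so receptor loss, Cre, reporter, tamoxifen and breeding line cannot be told apart. The hour at which aortas were taken is not given in the sources used here, and an hour that differed between the libraries cannot be told apart from genotype either. The deposited table names its columns by code, and which columns are WT and which KO was inferred from those codes.

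The circadian clock is a loop of transcription. ARNTL, paired with CLOCK or NPAS2, binds E-boxes and activates the Per and Cry genes, whose products repress that pair, while the REV-ERB receptors (Nr1d1, Nr1d2) and the ROR receptors compete for a shared element in the promoters of Arntl and other genes. The genes examined here sit downstream of this loop or on loops attached to it. Dbp, Tef and Hlf encode PAR bZIP activators that carry the rhythm to D-box genes, NFIL3 represses through the same element, CIART and the BHLHE40 and BHLHE41 proteins repress E-box transcription, RORA activates through the ROR element, and USP2 is a deubiquitinase with rhythmic transcripts in many tissues. Vascular SMCs and endothelial cells are known to hold such clocks.

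Promoter sequences are shown first, searched for the E-box, the D-box and the ROR element named above. RefSeq windows on build GRCm38.p6, from 250 bases before to 50 bases after a transcript start, were matched by symbol for 8 of the 9 genes (all but Bhlhe40) and gave 9 windows, since Tef had 2. The E-box (letters CACGTG, searched on both strands) was present in windows of 3 members, Ciart, Bhlhe41 and Tef. Of all 32851 windows 7.15% held E-boxes, and of their 27025 genes 2187 did. Ciart held 3 E-boxes, starting 116, 58 and 44 bases before the transcript start, and Bhlhe41 held 1, starting 153 bases before it. Each of the 2 Tef windows held 1, starting 138 and 127 bases before its own start. The core of the ROR element (TAGGTCA, both strands) was present in 1 member, Nfil3, and in 2.61% of all windows (802 of 27025 genes). It lay on the opposite strand, starting 12 bases before the RefSeq start and inside an exon of the GENCODE annotation. No member window held the D-box (TTATGTAA or TTACGTAA, both strands), which 1.06% of all windows held. No match overlapped another. A match is a run of letters and no evidence of binding, and the windows without a match say only that these letters are not in them. The stretches around the matches read as follows, 5′ to 3′ on the strand of the gene, with the motif in capitals.
Ciart, chr3:95882252-95882384, minus strand, 3 E-boxes: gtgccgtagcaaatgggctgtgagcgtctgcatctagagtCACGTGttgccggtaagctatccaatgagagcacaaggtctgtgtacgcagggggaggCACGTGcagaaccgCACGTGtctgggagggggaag
Bhlhe41, chr6:145865559-145865613, minus strand, 1 E-box: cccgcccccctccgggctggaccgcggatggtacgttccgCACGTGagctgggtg
Tef, chr15:81802538-81802559, plus strand, 1 E-box in an annotated exon: tgtggctcCACGTGctgcagct
Tef, chr15:81811236-81811321, plus strand, 1 E-box: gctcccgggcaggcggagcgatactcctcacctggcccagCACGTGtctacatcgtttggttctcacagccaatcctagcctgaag
Nfil3, chr13:52981037-52981059, minus strand, reverse ROR core: ctcggaacTGACCTActaacaca

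Both KO libraries stood apart from the WT libraries, and from each other, in transcripts of other tissues. Total counts were 19650983 to 28860598 per library. The 7 smooth muscle markers, Acta2 and Myh11 among them, were abundant in all libraries, with a summed normalized count (count divided by the DESeq2 size factor of its library) of 881200 to 1039466 in WT, 835575 in KO-1 and 994281 in KO-2, and none of the 7 passed the test described below. Of the 6 cardiac muscle markers 4 were called higher in KO, and their sum was 2946 to 4172 in WT, 26910 in KO-1 and 4078 in KO-2. The fat and blood markers were highest in KO-2. The 6 white adipocyte markers (3 called higher) summed to 2547 to 4894 in WT, 5392 in KO-1 and 37810 in KO-2, the 6 brown adipocyte markers (4 called higher) to 1101 to 1453, 3867 and 13783, and the 5 red blood cell markers (4 called higher) to 859 to 5990, 11076 and 61684. The 5 endothelial markers (3 called higher) summed to 10448 to 20024 in WT, 29381 in KO-1 and 28206 in KO-2, the 5 macrophage markers (3 called higher) to 3796 to 4519, 7987 and 8034, and the 6 fibroblast markers (0 called) to 42502 to 48083, 61483 and 57830. The 5 skeletal muscle markers (0 called) summed to 159 to 217 in WT, 662 in KO-1 and 179 in KO-2, with Myh1 at 0 counts in all libraries. Mitochondrial transcripts took 2.62% to 4.44% of counts in WT, 3.38% in KO-1 and 11.7% in KO-2. Tgfbr1 and Tgfbr2 had overlapping groups (3858 to 5420 in WT against 5780 and 4568 for Tgfbr1, and 5327 to 7042 against 5784 and 5937 for Tgfbr2), and whole-gene counts do not check the label since undeleted exons and cells without Cre are counted too. The part of these transcripts in the results below was not tested. The fold change of each of the 9 genes is therefore also given without each KO library.

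Of the 9 genes, 5 were called lower in the KO libraries (Dbp, Tef, Hlf, Ciart and Bhlhe41) and none higher, a call being a DESeq2 adjusted p-value under 0.05 with a fold change above 2. Across all tested genes 2.1% were called lower and 3.54% higher, 5.64% in either direction. Since the members were selected on this contrast, nothing is read from the difference. Fitted log2 fold changes of KO over WT are given below ± their standard error. The same 5 genes lay below every WT library in both KO libraries, an arrangement that 16.4% of all tested genes showed. The median log2 fold change of the 9 genes was -1.17, beside 0.01 for all tested genes. The edgeR quasi-likelihood test called 3 of them (Tef, Hlf and Ciart) and 3.93% of the genes it tested. In whole tissue, fewer cells of a type and less RNA per cell cannot be told apart.

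**Figure D1:**
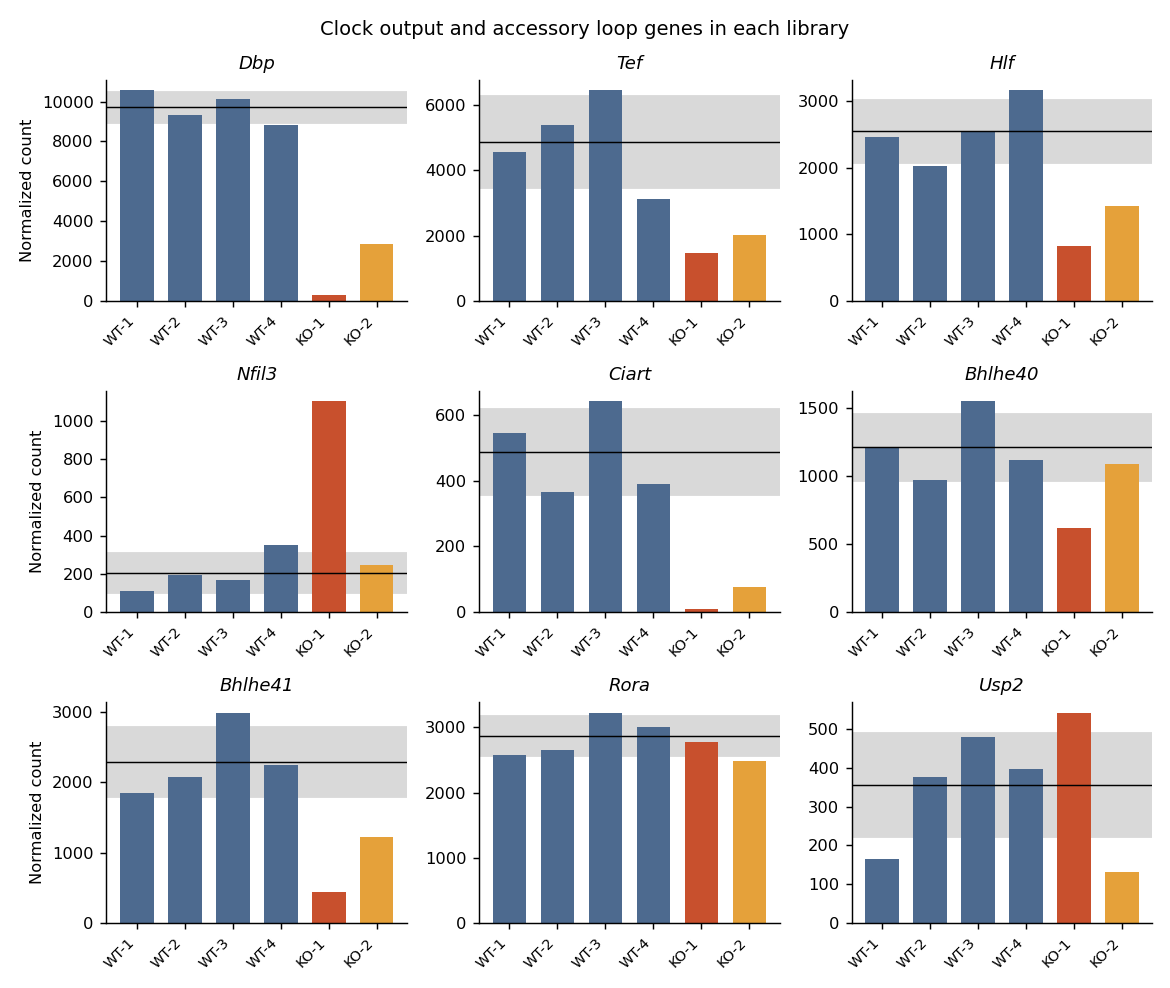
Normalized counts (y axis, linear from 0, a scale of its own for each gene) of the 9 genes in the 6 libraries (x axis), with the WT mean as a line and 1 SD to either side in gray. Dbp, Tef, Hlf, Ciart and Bhlhe41 are lower in KO-1 and KO-2 than in any WT library, Nfil3 is high in KO-1 alone, and Usp2 lies above the WT libraries in KO-1 and below them in KO-2.

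The PAR bZIP activators come first. Dbp (ENSMUSG00000059824.12, chromosome 7, 45705088 to 45710203, GRCm38) encodes a D-box activator known for a wide daily swing. In WT-1 to WT-4 its normalized counts were 10568, 9350.4, 10109 and 8811, and they were 283 in KO-1 and 2870.1 in KO-2. The WT libraries lay close together at 9709 ± 782 (SD, n = 4) and both KO libraries lay far below them, at 1577 ± 1829 (SD, n = 2). KO-1 was 34.3-fold and KO-2 3.38-fold below the WT mean, and KO-2 was 10.1-fold above KO-1. The log2 fold change of -2.62 ± 0.89 became -1.76 without KO-1 and -5.09 without KO-2. The call was lost when any 1 of the 4 WT libraries was left out, with fold changes of -2.67 to -2.58 on the log2 scale.

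Dbp shares exons with Sphk2, a sphingosine kinase gene on the opposite strand, over 539 bases, and whether the counting used strand is not given in the sources used here. Sphk2 had normalized counts of 577 to 886 in WT, 1041 in KO-1 and 825 in KO-2. The count of Sphk2 was lower than that of Dbp in every WT library and in KO-2, and higher in KO-1.

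Tef (ENSMUSG00000022389.14, chromosome 15, 81802421 to 81826863), the family member named for thyrotroph embryonic factor, had normalized counts of 4573, 5375, 6454 and 3104 in WT-1 to WT-4, 1477 in KO-1 and 2005 in KO-2. Both KO libraries were below the lowest WT library, WT-4, and they lay within 1.36-fold of each other. The log2 fold change was -1.49 ± 0.27, and Tef was called without KO-1 (-1.28) and without KO-2 (-1.71).

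Hlf (ENSMUSG00000003949.16, chromosome 11, 90336536 to 90390895), which encodes hepatic leukemia factor, had 2462, 2026, 2532 and 3167 in WT-1 to WT-4, 828 in KO-1 and 1432 in KO-2. The groups did not overlap, and KO-1 was again the lower of the KO pair, by 1.73-fold. Its log2 fold change was -1.17 ± 0.25. Without KO-1 it was -0.83 and no longer past the 2-fold threshold, and without KO-2 it was -1.61.

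Nfil3 (ENSMUSG00000056749.7, chromosome 13, 52967209 to 52981073), the repressor that opposes these activators at the D-box, ran the other way in a single library. In WT-1 to WT-4 it had normalized counts of 108, 191, 168 and 349.8, and it had 1103 in KO-1 and 243 in KO-2. KO-1 was 5.40-fold above the WT mean and KO-2 lay inside the WT range, so the groups overlapped. The log2 fold change, 1.72 ± 0.78, was not called. It was 0.25 without KO-1, and it was called without KO-2 (2.44) and without WT-4 (2.12), the WT library with the highest count.

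The repressors of E-box transcription followed. Ciart (ENSMUSG00000038550.10, chromosome 3, 95878503 to 95882251), whose product binds the ARNTL complex and holds it back, had normalized counts of 546, 366, 641 and 389 in WT-1 to WT-4, 7.59 in KO-1 and 76.2 in KO-2. Both KO libraries were far below WT, and the value in KO-1 stood on 10 counts. KO-1 was 64.0-fold and KO-2 6.37-fold below the WT mean, which made Ciart the member with the largest fall in either library. The log2 fold change of -3.55 ± 0.90 became -2.67 without KO-1 and -5.99 without KO-2. The promoter with 3 E-boxes printed above is that of Ciart. Of the other genes called lower, Bhlhe41 and Tef held E-boxes in their windows and Dbp and Hlf did not. A link between E-boxes and fold change was not tested.

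Bhlhe41 (ENSMUSG00000030256.11, chromosome 6, 145858243 to 145865558) and Bhlhe40 (ENSMUSG00000030103.11, chromosome 6, 108660629 to 108666925) encode a pair of related basic helix-loop-helix repressors that compete for E-boxes. Bhlhe41 had 1848, 2067, 2986 and 2244 in WT-1 to WT-4, 435 in KO-1 and 1223 in KO-2. Both KO libraries lay below every WT library, KO-1 by 5.26-fold and KO-2 by 1.87-fold against the WT mean. A log2 fold change of -1.47 ± 0.34 resulted. It was -0.90 and not called without KO-1, and -2.38 without KO-2. Bhlhe40 had 1205, 972, 1551 and 1117 in WT-1 to WT-4, 617 in KO-1 and 1088 in KO-2. Only KO-1 lay below the WT range and KO-2 lay inside it. Its log2 fold change was -0.51 ± 0.27 (-0.15 without KO-1, -0.96 without KO-2), and Bhlhe40 was called in none of the 13 alternative fits.

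Rora and Usp2 were not called. Rora (ENSMUSG00000032238.17, chromosome 9, 68653786 to 69388246), the ROR receptor gene that drives Arntl, had 2579, 2657, 3229.5 and 2999.8 in WT-1 to WT-4, 2776 in KO-1 and 2490.3 in KO-2. KO-1 lay inside the WT range and KO-2 just below it, and the log2 fold change was -0.12 ± 0.17. Its 95% interval ran from -0.46 to 0.22, and the fold change was -0.20 without KO-1 and -0.04 without KO-2. Usp2 (ENSMUSG00000032010.15, chromosome 9, 44067021 to 44095627) had 166, 376, 480.3 and 398 in WT-1 to WT-4, 543 in KO-1 and 132 in KO-2. Its KO libraries lay on opposite sides of the WT range, 4.13-fold apart, an arrangement seen in 7.79% of all tested genes. The log2 fold change of -0.07 ± 0.48 thus averages 2 unlike libraries. It was 0.62 without KO-2, and -1.43 and called without KO-1. Usp2 shares 200 exonic bases with the opposite-strand gene Gm49380, which had at most 95 counts in a library.

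**Figure D2:**
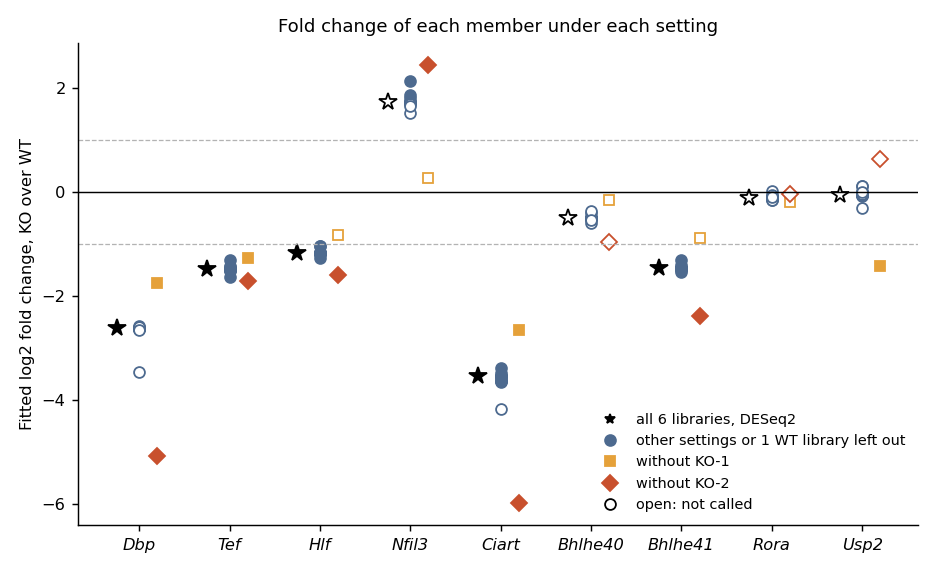
Fitted log2 fold change of KO over WT (y axis) of each gene (x axis) with all 6 libraries and DESeq2 (star) and under 13 alternative fits, filled where the gene was called. Tef stays between -1.71 and -1.28, while Dbp and Ciart run from -1.76 to -5.09 and from -2.67 to -5.99 depending on which KO library is kept.

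The distance between the KO libraries varied among these genes. Since the members were selected on values of these libraries, nothing is read from the shares that follow. KO-1 and KO-2 lay more than 2-fold apart in 5 of the 9 (Dbp, Nfil3, Ciart, Bhlhe41 and Usp2), beside 16.2% of all tested genes. The median distance between KO-1 and KO-2 was 1.49 on the log2 scale for the 9 genes and 0.37 for all tested genes. In Dbp and Ciart the distance was 3.34 and 3.25, wider than in 97.4% and 97.3% of tested genes. It was wider than in 78.8% in Bhlhe40, 77.8% in Hlf and 56.9% in Tef. In Rora it was 0.16, wider than in 23.6%. In every gene but Rora, Nfil3 and Usp2 the lower value was that of KO-1.

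The spread within WT differed widely among the members. The highest WT library exceeded the lowest by 3.25-fold for Nfil3, 2.90-fold for Usp2 and 2.08-fold for Tef, but by 1.20-fold for Dbp and 1.25-fold for Rora. As the SD of log2 normalized counts, this was 0.70 for Nfil3, 0.68 for Usp2, 0.45 for Tef and 0.12 for Dbp. Among the 11447 genes with a mean normalized count of at least 100, these values were above those of 97.0%, 96.7%, 92.2% and 26.0% of genes. The median over the 9 genes was 0.30, beside 0.17 for those genes. WT-4 held the highest counts of Nfil3 and Hlf and the lowest of Tef and Dbp, WT-1 the lowest of Nfil3 and Usp2, and WT-3 the highest of Tef, Ciart, Bhlhe40, Bhlhe41, Rora and Usp2.

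Levels were compared between genes as normalized counts per kilobase of annotated exon. In WT the order was Dbp (3244 ± 261, SD, n = 4), Tef (619.9 ± 179), Hlf (381 ± 70.4), Bhlhe41 (340.2 ± 73.5), Bhlhe40 (257 ± 52.3), Rora (219 ± 23.2), Ciart (215 ± 57.8), Nfil3 (101 ± 51.0) and Usp2 (73.7 ± 27.8), all with n = 4. Dbp and Tef were the only neighbors in this order whose WT libraries did not overlap. In KO-2, Dbp (959) and Tef (255) stayed the first and the second, Ciart fell to the eighth place (33.7) and Usp2 was last (27.3). In KO-1 the order was turned over. Nfil3 was first (545), Rora the second (212) and Tef the third (188), while Dbp was the seventh (94.6) and Ciart last (3.36).

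**Figure D3:**
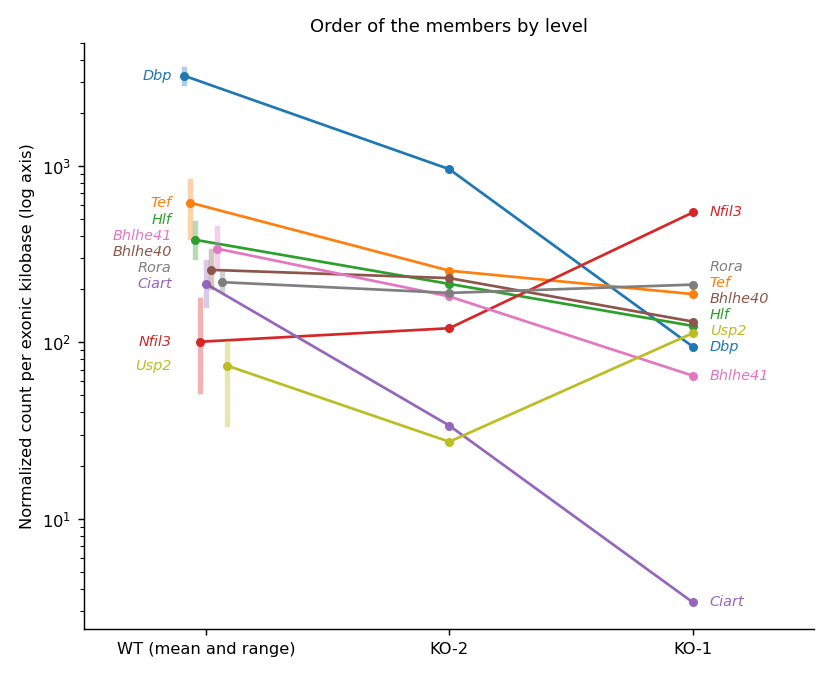
Normalized count per exonic kilobase (y axis, log scale) of the 9 genes as the WT mean of 4 libraries with bars from the lowest to the highest, in KO-2 and in KO-1. Dbp goes from 3244 in WT to 959 in KO-2 and 94.6 in KO-1, and Nfil3 is the highest of the 9 in KO-1 at 545.

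Ratios between members within a library do not depend on how libraries are scaled. The log2 ratio of Dbp over Nfil3, an activator over the repressor of the same element, was 6.61, 5.61, 5.91 and 4.65 in WT-1 to WT-4, -1.96 in KO-1 and 3.56 in KO-2. Both KO libraries lay below the WT range, and in KO-1 the repressor had the higher count. Tef over Nfil3 was 3.15 to 5.40 in WT, 0.42 in KO-1 and 3.04 in KO-2, the last close to the WT-4 value. Hlf over Nfil3 was 3.18 to 4.51 in WT, -0.41 in KO-1 and 2.55 in KO-2. Bhlhe40 over Bhlhe41 was -1.09 to -0.62 in WT, 0.50 in KO-1 and -0.17 in KO-2, so that the balance of this pair moved toward Bhlhe40 in both KO libraries. Dbp over Ciart was 3.98 to 4.67 in WT, 5.15 in KO-1 and 5.22 in KO-2. This ratio lay above the WT range in both KO libraries, with values close together, although Dbp and Ciart were 10.1-fold and 10.04-fold apart between these libraries. That closeness is uncertain, since the KO-1 value stood on 10 counts of Ciart. Sphk2, which shares exons with Dbp, also had a higher count than Dbp in KO-1.

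**Figure D4:**
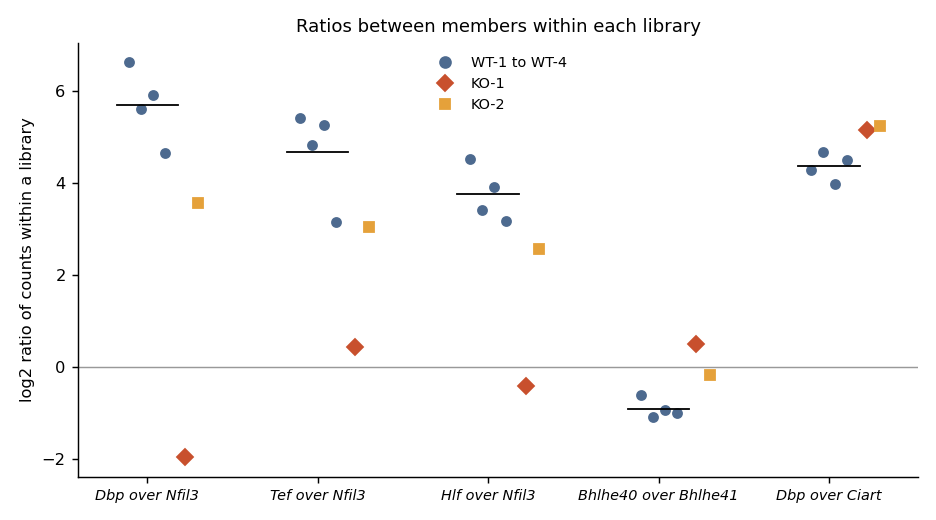
The log2 ratio of counts of a pair of members (y axis) in each library, for 5 pairs (x axis), with the WT mean as a line. The ratios of Dbp, Tef and Hlf over Nfil3 are lowest in KO-1, at -1.96, 0.42 and -0.41. The ratio of Dbp over Ciart is 5.15 in KO-1, on 10 counts of Ciart, and 5.22 in KO-2.

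The core loop to which these genes are attached was described with 12 further genes, 11 of which had an adjusted p-value (Rorb, at or near 0 counts, had none). Of the 11, 2 were called higher (Arntl and Npas2) and 4 lower (Per1, Per2, Per3 and Cry2), beside the shares of all tested genes given above. The median log2 fold change was -0.58. This list too was drawn up with earlier results known, so the p-values printed for its genes are a description and no independent support.

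The activators of E-boxes were higher in both KO libraries. Arntl had normalized counts of 30.8, 98.8, 37.9 and 44.9 in WT-1 to WT-4, 1169 in KO-1 and 322 in KO-2 (log2 fold change 3.81 ± 0.50, DESeq2 adjusted p = 6.92e-12). Npas2 had 186 to 236 in WT, 1452 in KO-1 and 803 in KO-2 (log2 fold change 2.38 ± 0.27, DESeq2 adjusted p = 3.83e-16). Clock passed the adjusted p-value but not the 2-fold threshold, with 1229 to 1606 in WT, 2911 in KO-1 and 2372 in KO-2 (log2 fold change 0.90, DESeq2 adjusted p = 6.74e-05). These 3 genes were the ones of the list with both KO libraries above every WT library, which 17.9% of all tested genes showed. In each of them the value of KO-1 was the farther from WT, as in Dbp and Ciart.

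The Per genes and Cry2, whose products repress those activators, were lower in both KO libraries. Per2 had 2816 to 4296 in WT, 973 in KO-1 and 863 in KO-2 (log2 fold change -2.03 ± 0.21, DESeq2 adjusted p = 2.82e-19). Per3 had 2096 to 3292 in WT, 437 in KO-1 and 969.8 in KO-2 (-2.06, DESeq2 adjusted p = 7.77e-10). Per1 had 2575 to 3398 in WT, 1429 in KO-1 and 771 in KO-2 (-1.45, DESeq2 adjusted p = 4.6e-07), and Cry2 had 1873 to 2130.1 in WT, 894 in KO-1 and 1032 in KO-2 (-1.06, DESeq2 adjusted p = 8.01e-08). In Per1 and Per2 it was KO-2, not KO-1, that held the lower count. Cry1 was not called, with a log2 fold change of -0.40.

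The REV-ERB genes, whose products act on the ROR element of Arntl and Nfil3, were not called. Nr1d1 had 9307 to 11142 in WT, 2654 in KO-1 and 11310 in KO-2, so that KO-1 lay below the WT range and KO-2 just above it (log2 fold change -0.58, DESeq2 adjusted p = 0.637). Nr1d2 had 4908 to 7036 in WT, 1994 in KO-1 and 3975 in KO-2 (-0.99, DESeq2 adjusted p = 0.00502, short of 2-fold), both KO libraries below every WT library. The same library, KO-1, held the lowest Nr1d1 and the highest Nfil3. This is 1 library, and a link between these values was not tested.

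**Figure D5:**
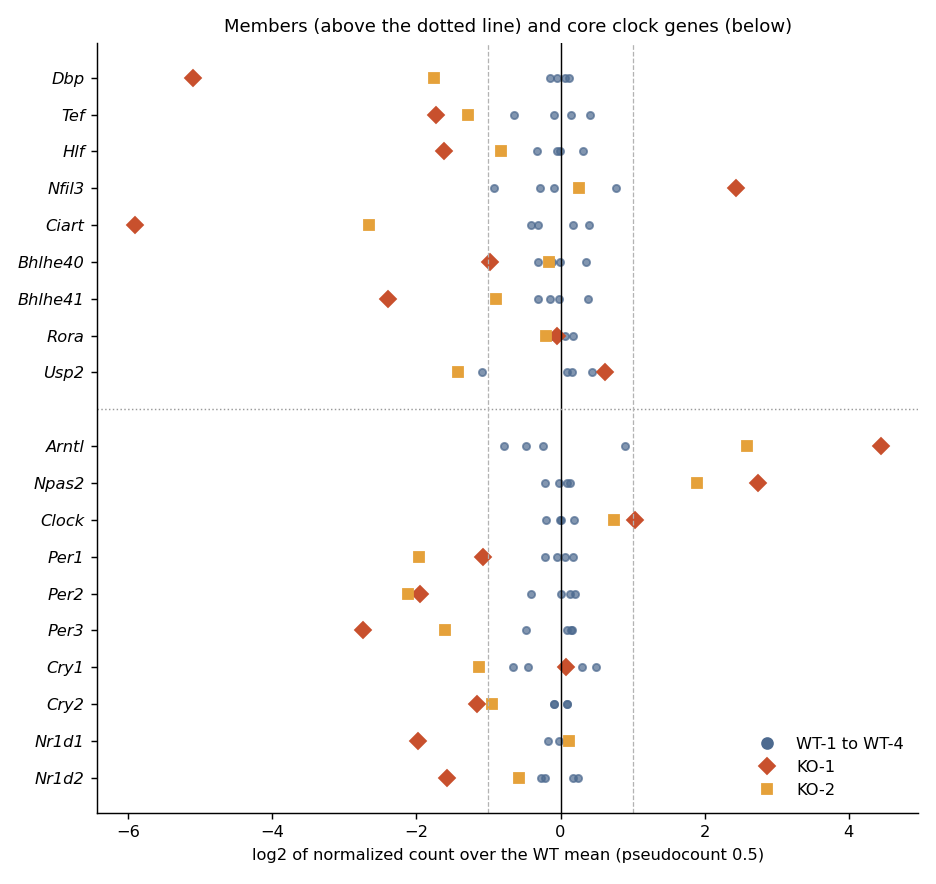
The log2 of each library's normalized count over the WT mean (x axis, pseudocount 0.5, dashed lines at 2-fold) for the 9 genes (above the dotted line) and 10 core clock genes (below it). KO-1 (diamonds) is farther from WT than KO-2 (squares) in Dbp (-5.10 against -1.76), Ciart (-5.91 against -2.66) and Arntl (4.45 against 2.59), while in Per1 KO-2 is the farther (-1.07 against -1.96).

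Regulators of the clock, most of which act on clock proteins after translation, gave no call. Of 10 such regulators, among them the casein kinases Csnk1d and Csnk1e, the kinase Gsk3b and the AMP-activated kinases Prkaa1 and Prkaa2, 0 were called by DESeq2 or by edgeR, and 0 had an unadjusted p under 0.05 in either, a level that 22.2% of all tested genes passed in DESeq2 and 24.8% in edgeR. Their median log2 fold change was 0.01. Of 10 other genes known to follow the clock in many tissues, 3 were called by DESeq2 and 2 by edgeR, beside 5.64% and 3.93% of all genes these tested. Tspan4, a tetraspanin, had 1622 to 1971 in WT, 770.2 in KO-1 and 558 in KO-2 (log2 fold change -1.41, DESeq2 adjusted p = 5.09e-10). Wee1, the kinase that delays mitosis and a known clock target, had 427 to 964 in WT and 309.6 and 309 in KO-1 and KO-2 (-1.19, DESeq2 adjusted p = 0.00267). Cdkn1a, a cell cycle inhibitor, had 775 to 1112 in WT, 2154 in KO-1 and 1779 in KO-2 (1.03, DESeq2 adjusted p = 2.22e-05). The median of these 10 genes was -0.12.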

How the data were processed

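Total RNA of 6 thoracic aortas was sequenced. Per the study's methods, the authors trimmed reads with Trim Galore, mapped them to GRCm38 with HISAT2 and quantified genes of GENCODE M15 with StringTie. Estimated counts for each gene were deposited, unscaled and as whole numbers, so none was rounded here. Their scale depends on how StringTie coverage was converted, which is not given in the sources used here, nor is the use of strand. Of 52636 gene identifiers, 52489 matched GENCODE M21, the source of gene positions and exon lengths, and 27151 genes had 0 counts throughout. Total counts ran from 19650983 to 28860598 per library, and the standard errors also hold the spread between libraries of a group.

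DESeq2 1.42.0 in R 4.3.3 compared KO with WT (Wald test, group as the only term), and genes more than 2-fold apart with a p-value under 0.05 after Benjamini-Hochberg adjustment were called. The 13 alternatives were the edgeR 4.0.16 quasi-likelihood test (with its filter on low counts, and unfiltered), scaling by TMM factors or by total counts, DESeq2 without independent filtering and outlier handling, a test against a 2-fold change itself, a replicate block, and fits without each library in turn. The scripts were tested on simulated counts. Libraries are named by the closing digit of their column code. The study counts these aortas by mouse, 4 WT and 2 KO.

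The members and gene lists (core clock, clock regulators, other clock-controlled genes, glucocorticoid targets, immediate early genes and 9 cell type marker lists) were chosen with earlier results of these data known. The p-values printed for genes of these lists are therefore a description. Named genes are the 9 members, called core clock genes, up to 3 called genes of each other pathway list, and for each member with an absolute log2 fold change above 1 the 3 genes most like it. Marker genes, the remaining core clock genes, and clock regulators and glucocorticoid targets without a call were named after their values were seen. Single-library fold changes on the log2 scale used a pseudocount of 0.5. Some genes of these lists enter the counts and are not reported here by name.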

Additional observations from a re-analysis of the deposited data

Results flagged for a closer look

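For each of 27 values (normalized counts of the members and of core clock and clock-controlled genes that are named, and ratios between members), the 4 WT libraries were checked for 1 library that stands apart from the other three. Chance alone gives such a library in about 5% of groups, and 1 of the 27 had one. Per3 had a normalized count of 2096 in WT-2 and of 3115 to 3292 in WT-1, WT-3 and WT-4, and both KO libraries (437 and 969.8) lay below it.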

How the results depend on the processing

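Across the 13 alternatives no called gene among the 9 changed direction. Of their 65 log2 fold changes, 47 stayed past the thresholds. The edgeR test called 633 genes and 3 of the 9, and 3 of the 9 without a filter on low counts. Tested against a 2-fold change itself, 114 genes were called, none (0) of the 9, 3 core clock genes and 0 other clock-controlled genes. With a replicate block on the closing digit of the column code, 561 genes were called, among them 1 other clock-controlled gene and 4 of the 9 (Tef, Hlf, Nfil3 and Bhlhe41, with Dbp and Ciart lost). Correlations of deviations across genes were -0.13 for WT-1 with KO-1 and -0.02 for WT-2 with KO-2. The highest of any WT with any KO library was 0.19, for WT-4 with KO-1. With 2 KO libraries the deviations of 1 mirror those of the other, so these values cannot settle whether the numbers pair the libraries. Leaving out 1 library in turn gave 636 to 1284 genes, 4 to 6 of the 9, 5 to 9 core clock genes, 0 clock regulators, 2 to 4 other clock-controlled genes and a median of -1.61 to -0.90 over the 9. The lowest count of genes (636) and the median of -1.61 came without KO-2. Fits without a KO library assume that the lone one varies like WT. Without independent filtering and outlier handling Dbp was not called. Total counts as scaling moved the median of all genes by 0.04 and left the order of WT levels as it was, and with the longest transcript as the length 2 of 9 ranks changed (Bhlhe40 and Bhlhe41). The cause of these changes was not tested. With 2 KO libraries, values of either one cannot be told apart from the animal it came from.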

Other observations

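Genes of other signals that act on some of these clock genes were also described. Of 8 glucocorticoid targets, 0 were called by DESeq2 or edgeR, with a median log2 fold change of -0.59 and an unadjusted p under 0.05 for 5 of them in DESeq2 and 4 in edgeR, beside 22.2% and 24.8% of all genes these tested. Past the adjusted p-value alone were Fkbp5 (573 to 1202 in WT, 563 and 427 in KO-1 and KO-2), Klf9 (9314 to 11887 in WT, 5232 and 8061) and Sgk1 (2158 to 3108 in WT, 1872 and 1225), all lower, with DESeq2 adjusted p-values of 0.0275, 0.0194 and 0.0473. Of 8 immediate early genes, 2 were called by DESeq2, both lower, beside 2.1% of all tested genes called lower and 3.54% higher. An unadjusted p under 0.05 was found for 4 of the 8 in DESeq2 and 4 in edgeR. Fosb had 637 to 1384 in WT, 312 in KO-1 and 352 in KO-2 (log2 fold change -1.62), and Nr4a1, an orphan receptor gene, had 2444 to 3858 in WT, 1185 in KO-1 and 892 in KO-2 (-1.55). The median of these 8 was -0.79.

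For each member with an absolute log2 fold change above 1, the 3 genes with the most similar pattern over the 6 libraries were found among 11446 genes with a mean normalized count of at least 100, by the root mean square distance of log2 counts taken less the WT mean. Since the 2 KO libraries weigh most in that distance, it describes the contrast and tests nothing. Dbp and Ciart were each other's nearest gene, at a distance of 0.52. The next nearest to Dbp were Zbed6 (0.76), which lay 5.07 below the WT mean on the log2 scale in KO-1 and within 0.07 of it in KO-2, and Gm37352 (0.77). The next nearest to Ciart were Col15a1 (0.98), a collagen gene, and Mylk2 (1.02), a myosin light chain kinase gene. Neither shared the wide distance of Ciart between KO-1 and KO-2 (-5.87 and -2.63 against the WT mean on the log2 scale). Col15a1 lay at -5.42 in KO-1 and -4.91 in KO-2, and Mylk2 at -3.60 and -3.27. Nearest to Tef were Prr15 (0.21), Nupr1 (0.24) and Pdgfb (0.24), nearest to Hlf were Rasd2 (0.14), Trim58 (0.14) and Net1 (0.18), and nearest to Bhlhe41 were Gm13212 (0.22), A930033H14Rik (0.27) and Phactr3 (0.29). Nearest to Nfil3 were Rnf144a (0.43), Pln (0.43) and Svep1 (0.44), of which Pln encodes phospholamban, a calcium pump regulator abundant in heart. With a minimum of 20 in place of 100, 1 of the 3 genes was shared for Dbp, Tef, Hlf, Ciart and Bhlhe41 and 2 of 3 for Nfil3. Gm15721 was then the nearest to both Dbp (0.37) and Ciart (0.42), and Ciart was the third nearest to Dbp.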
